A study of Danio rerio with 9 samples.

Results

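The genes described here make, sense, burn and carry sterols and fatty acids. They were chosen by name: a probe set was taken where its single gene symbol in the platform annotation began with the symbol of an enzyme of cholesterol synthesis, a sterol sensor or lipoprotein receptor, an enzyme of fatty acid synthesis, elongation, activation or oxidation, a PPAR (peroxisome proliferator-activated receptor) gene, a lipase, an apolipoprotein, a fatty acid binding protein or an ABC lipid transporter. The rule used no measured value. It found 60 of 8793 genes, measured by 75 of the 15617 probe sets of the Affymetrix Zebrafish Genome Array, 10802 of which have a single symbol. The prefixes also took in abca12, fabp10a, ldlrad3 and ppargc1b, and no PPAR receptor itself was among the members.

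RNA came from dissected whole eyes of wild type zebrafish larvae at 3, 4 and 5 days post fertilization (dpf), with 3 arrays at each age. No treatment or transgene was used. The arrays of 3 and 5 dpf are biological replicates, whereas those of 4 dpf carry only a replicate number, so p-values involving them measure the spread between arrays that may be technical. An eye sample pools several tissues, and fewer cells of a type cannot be told apart from less RNA per cell.

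Cholesterol is built from acetyl-CoA through mevalonate and farnesyl diphosphate, and the cell senses its own sterol level through membrane proteins of the endoplasmic reticulum such as the insigs. Fatty acids are lengthened by elongases, joined to coenzyme A by acyl-CoA synthetases, and then either placed in membranes or burned in mitochondria, which they enter through the carnitine palmitoyltransferases. The retina is known for the very long and highly unsaturated chains in photoreceptor membranes, while apolipoproteins and most fatty acid binding proteins are best known from yolk, liver and gut, where dietary and stored lipids are packed for transport.

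All values are log2 signals as deposited, and differences are the later age minus the earlier one. A probe set was called when limma gave a Benjamini-Hochberg adjusted p under 0.05 over 15502 probe sets and a difference of at least 2-fold. The array medians lay between 5.68 and 5.77, and signals of at least 5 made up 55.4% to 55.8% of each array. Correlations were 0.983 to 0.995 between arrays of an age and 0.964 to 0.991 between ages. The eye label was borne out by 10 photoreceptor genes, whose mean signal was 12.02 to 12.27 at 3 dpf, 12.52 to 12.84 at 4 dpf and 12.22 to 12.56 at 5 dpf. Skeletal muscle genes also gave signal, and the source of their RNA was not tested. The mean of 16 skeletal muscle genes was 8.21 to 8.57 at 3 dpf, 5.60 to 5.87 at 4 dpf and 5.34 to 6.59 at 5 dpf. All 16 had negative differences against 3 dpf at both later ages. Of them, 11 were called lower at 5 dpf against 3 dpf, beside 2.39% of all probe sets. At 4 dpf against 3 dpf 14 were called lower, beside 1.66%.

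Of the 75 members, 52 probe sets of 44 genes had a mean of at least 5 at some age. These are called measured below. Another 14 stayed under 3 at every age, near the bottom of the scale, among them the probe sets of scd, elovl5, acad9, lipca, fabp6, apoa4a and apoc4. A low signal on this array limits what can be seen of a gene and does not show that its RNA was lacking.

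At 5 dpf against 3 dpf, 3 members were called lower and 0 higher, while 38 of the 75 differences were positive and 37 negative. The genes called lower were elovl7a, which lengthens long saturated fatty acids, acsl6 and hadhab. Of these, acsl6 is the acyl-CoA synthetase that in mouse loads docosahexaenoic acid in brain and retina. A copy of the alpha subunit of the mitochondrial trifunctional protein is encoded by hadhab. Lower calls were 2.39% and higher calls 2.97% of all probe sets, so 3 of 75 (4%) is near the background. By adjusted p alone 8 members were lower (10.7%, against 5.63% of all probe sets) and 0 were higher (against 5.7%). At an unadjusted p under 0.05 there were 31 members (41.3%), beside 35.2% of all probe sets. Among the 52 measured members there were 27 (51.9%), beside 39.6% of all measured probe sets. The median difference of the 75 members was 0.0014, against 0.10 over all probe sets, and that of the 52 measured ones was -0.28, against -0.02 over all measured probe sets.

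**Figure D1:**
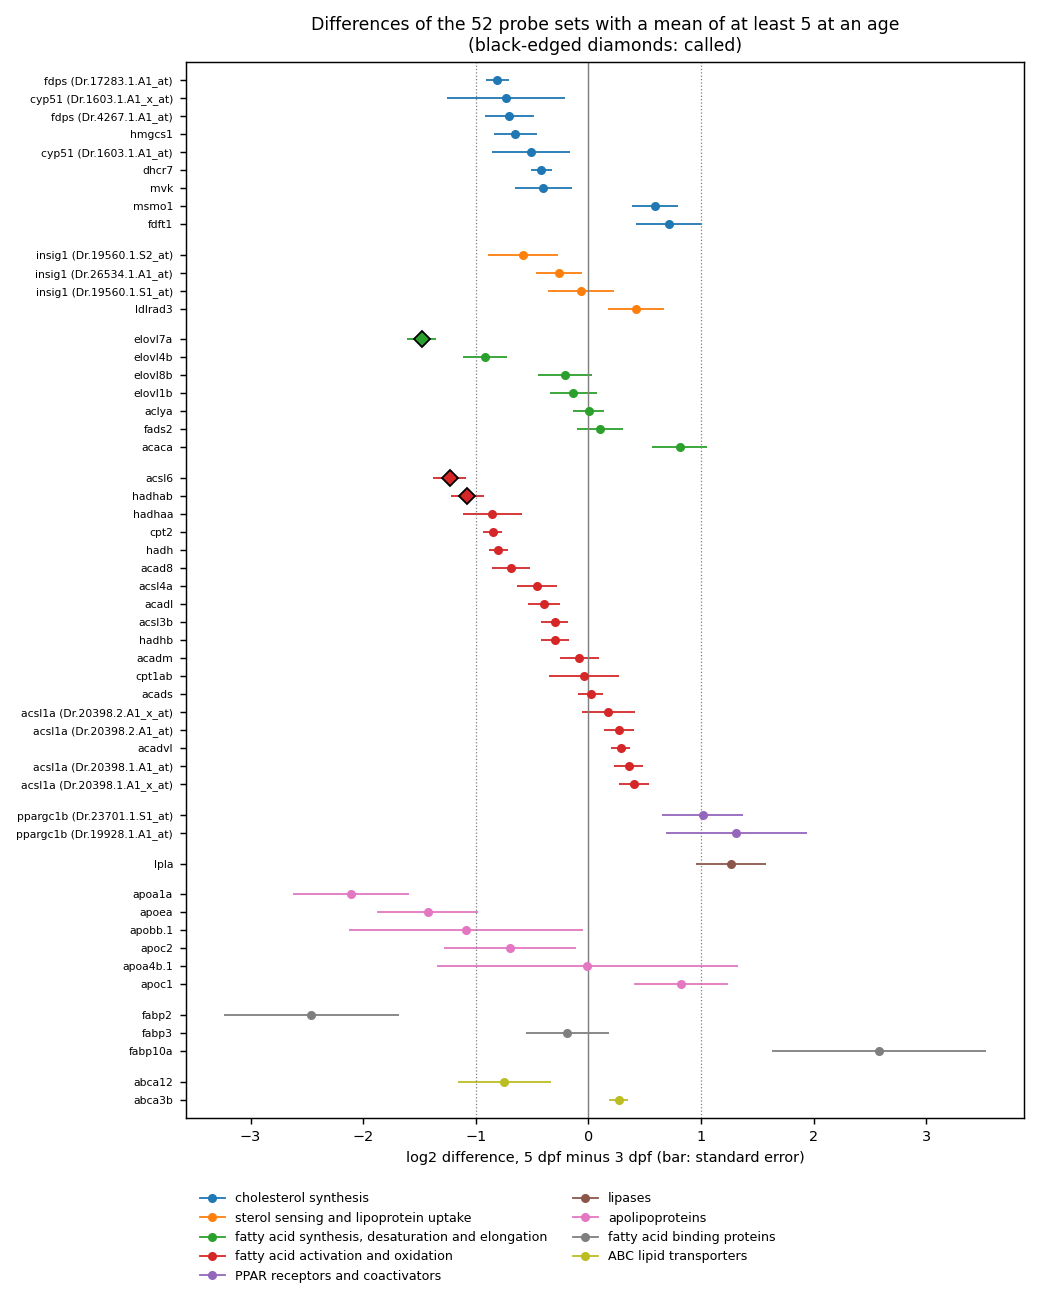
Log2 difference, 5 dpf minus 3 dpf, of the 52 measured probe sets, grouped by role, with bars for the standard error and dotted lines at a 2-fold difference. The black-edged diamonds of elovl7a, acsl6 and hadhab are the 3 called members, and the widest bars belong to apolipoproteins and fatty acid binding proteins.

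In the 4 dpf comparisons, elovl7a and apoea were called lower at 4 dpf against 3 dpf and 0 members were called higher. Lower calls there were 1.66% and higher calls 1.62% of all probe sets. By adjusted p alone the same 2 were lower, against 6.19% of all probe sets, and 1 was higher, against 7.21%. An unadjusted p under 0.05 was found for 15 members (20%) at 4 dpf against 3 dpf, beside 29.7% of all probe sets. At 5 dpf against 4 dpf limma called 0 members, with 20 (26.7%) at an unadjusted p under 0.05, beside 23.3% of all probe sets. Among the 52 measured members these were 15 (28.8%), beside 20% of all measured probe sets. Calls were rare there for all probe sets, at 0.174% lower and 0.264% higher. By adjusted p alone 7 members (9.33%) were lower at 5 dpf than at 4 dpf, against 2.48% of all probe sets, and 1 was higher, against 5.59%. The 7 included insig2, which was not a measured member. Among the 52 measured members 6 were lower (11.5%, against 3.28% of all measured probe sets) and 1 was higher (1.92%, against 2.05%). The comparisons share arrays: those of 4 dpf enter both steps, so each step's values are given side by side only.

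Fatty acid activation and oxidation was the largest role, with 24 probe sets, of which 18 were measured. At 5 dpf against 3 dpf, 2 were called lower (8.33%, against 2.39% of all probe sets) and 0 higher. By adjusted p alone 4 were lower (16.7%, against 5.63%), and 14 (58.3%) had an unadjusted p under 0.05, against 35.2%. These 14 took both directions, with positive differences for acadvl (0.29), cpt1b (0.41) and several probe sets of acsl1a (0.24 to 0.40), named after their values were seen. The role holds 5 probe sets of acsl1a and 2 of cpt2, so its shares count some genes more than once. The median was -0.03 over the 24 and -0.30 over the 18 measured ones. Of the 3 members called in this comparison, elovl7a lay outside this role.

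The signal of acsl6 was 9.60, 10.11 and 9.87 at 3 dpf, 9.47, 9.38 and 9.51 at 4 dpf, and 8.56, 8.73 and 8.60 at 5 dpf. All 3 arrays of 5 dpf lay below all others. The gene was 2.35-fold lower at 5 dpf than at 3 dpf (log2 difference -1.23, SE 0.143, limma adjusted p = 0.011). The call was lost without replicate 3 of 3 dpf, where the adjusted p was 0.056. Its difference at 5 dpf against 4 dpf was -0.83 (adjusted p = 0.012), and at 4 dpf against 3 dpf it was -0.41 (adjusted p = 0.075). The test of the difference between these steps did not pass (adjusted p = 0.38).

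The trifunctional protein carries out the last reactions of each round of long-chain oxidation. Its alpha subunit copy hadhab had 10.06, 10.21 and 10.08 at 3 dpf, 9.83, 9.46 and 9.75 at 4 dpf, and 9.35, 8.88 and 8.89 at 5 dpf. No ages overlapped. It was 2.11-fold lower at 5 dpf than at 3 dpf (log2 difference -1.08, SE 0.148, adjusted p = 0.015). This call was near its limits and was lost without replicate 2 (adjusted p = 0.059) or replicate 3 (adjusted p = 0.067) of 3 dpf, and without replicate 2 of 5 dpf, where the difference was just under 2-fold.

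The other alpha subunit copy, hadhaa, had 7.21, 7.44 and 7.52 at 3 dpf, 7.61, 7.47 and 7.45 at 4 dpf, and 6.90, 6.73 and 5.98 at 5 dpf. Its arrays of 5 dpf were below all others and spread more widely. The difference was -0.85 (SE 0.263, adjusted p = 0.094) at 5 dpf against 3 dpf and -0.97 (adjusted p = 0.045) at 5 dpf against 4 dpf, which is just under the fold limit. Leaving out replicate 1 of 5 dpf made the second of these a call (-1.15, adjusted p = 0.035). The beta subunit gene hadhb, whose product joins the alpha subunit in the same complex, had 10.62, 10.41 and 10.48 at 3 dpf, 10.56, 10.38 and 10.27 at 4 dpf, and 10.38, 10.25 and 9.99 at 5 dpf. Every array of hadhb at 5 dpf lay below those of 3 dpf, with a difference of -0.30 (SE 0.122, adjusted p = 0.15) that did not pass the test.

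A further pair of oxidation genes passed the adjusted p but not the fold limit. The inner membrane enzyme cpt2, which frees fatty acids from carnitine inside the mitochondrion, had 8.63, 8.74 and 8.68 at 3 dpf, 8.46, 8.37 and 8.59 at 4 dpf, and 7.89, 7.93 and 7.68 at 5 dpf. Its difference at 5 dpf against 3 dpf was -0.85 (SE 0.086, adjusted p = 0.0081), and at 5 dpf against 4 dpf it was -0.64 (adjusted p = 0.0077). The hydroxyacyl-CoA dehydrogenase hadh, which acts on shorter chains, had 9.51, 9.68 and 9.53 at 3 dpf, 9.34, 9.39 and 9.19 at 4 dpf, and 8.86, 8.66 and 8.78 at 5 dpf. The ages of hadh did not overlap either, and its difference was -0.80 (SE 0.085, adjusted p = 0.0088) at 5 dpf against 3 dpf and -0.54 (adjusted p = 0.012) at 5 dpf against 4 dpf. A second cpt2 probe set stayed between 1.86 and 2.02 on every array, near the bottom of the scale.

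Not every oxidation enzyme behaved in this way. The medium-chain acyl-CoA dehydrogenase acadm had 10.62, 10.57 and 10.39 at 3 dpf, 10.34, 10.53 and 10.63 at 4 dpf, and 10.08, 10.62 and 10.63 at 5 dpf. The ages of acadm overlapped, with a difference of -0.08 (SE 0.175, adjusted p = 0.75) at 5 dpf against 3 dpf. The remaining measured probe sets of the role differed by -0.69 (acad8, of branched-chain amino acid breakdown) to 0.40 (acsl1a), and none passed the adjusted p. Over the 18 measured probe sets of the role the median SD among arrays of an age was 0.18, against 0.24 over all 9014 measured probe sets.

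Among the 11 probe sets of fatty acid synthesis, desaturation and elongation, elovl7a was the 1 called lower at 5 dpf against 3 dpf and 0 were called higher. Its signal was 7.56, 7.67 and 7.43 at 3 dpf, 5.87, 6.14 and 6.24 at 4 dpf, and 6.07, 6.28 and 5.87 at 5 dpf. The 3 dpf arrays stood above all others, and those of 4 and 5 dpf overlapped. Against 3 dpf the gene was 2.79-fold lower at 5 dpf (log2 difference -1.48, SE 0.127, adjusted p = 0.0061) and 2.77-fold lower at 4 dpf (-1.47, SE 0.134, adjusted p = 0.0014). At 5 dpf against 4 dpf the difference was -0.01 (adjusted p = 0.97). The step to 5 dpf differed from the step to 4 dpf by 1.46 (SE 0.232, adjusted p = 0.013). The members that passed this test numbered 2, elovl7a with a positive and insig2 with a negative difference between the steps, beside 4.19% of all probe sets positive and 1.81% negative (6% in all). Both calls against 3 dpf held with each single array left out, but the test of the steps was lost without replicate 1 (adjusted p = 0.059) or replicate 2 (adjusted p = 0.065) of 4 dpf and when a mean of at least 5 was required (adjusted p = 0.064). Skeletal muscle and cartilage genes were also lower at 4 dpf than at 3 dpf, with 6 of 9 cartilage genes called besides the muscle genes given above, and their part in the elovl7a difference was not tested.

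**Figure D2:**
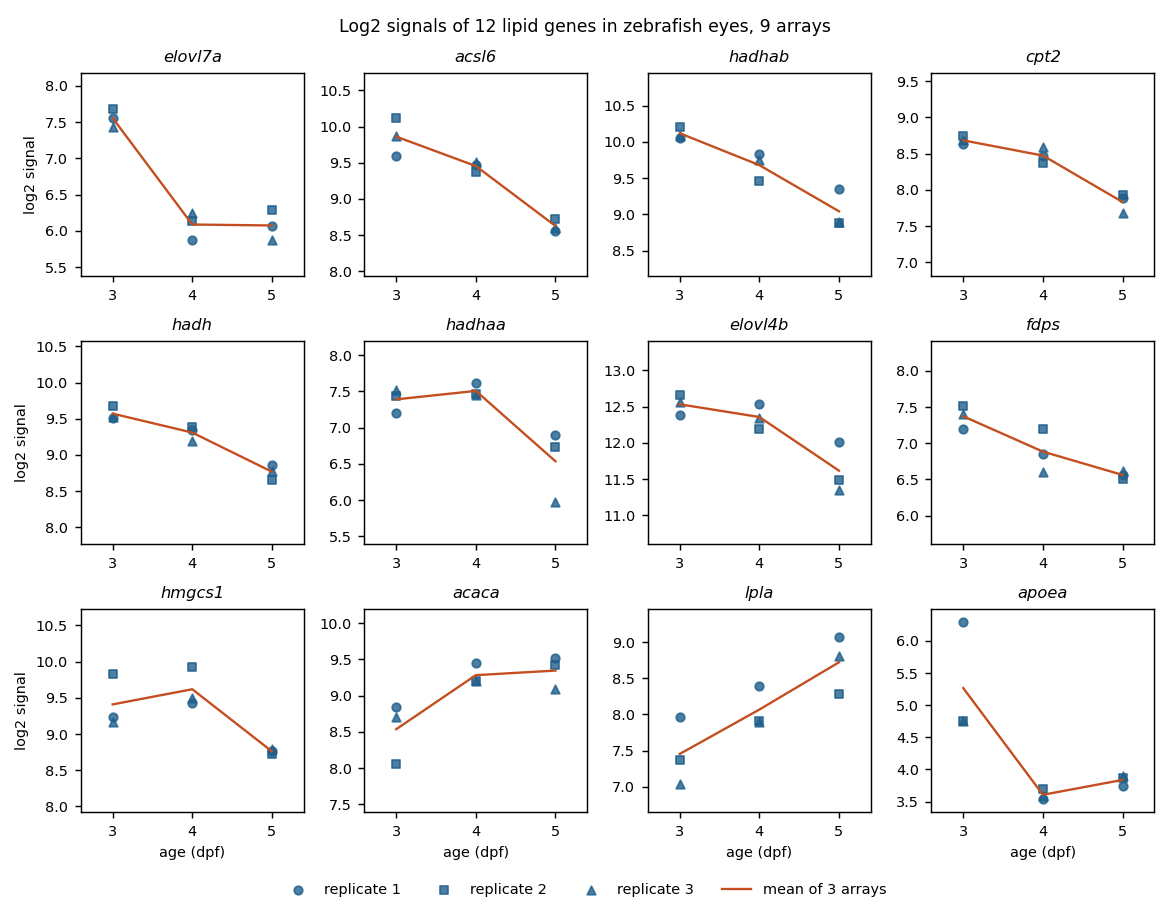
Log2 signal of 12 lipid genes against age in dpf, with 1 point for each array and a line through the means of 3 arrays; each panel has its own signal axis. The elovl7a arrays of 4 and 5 dpf lie below those of 3 dpf, while acsl6, hadhab, cpt2 and hadh are lowest in all 3 arrays of 5 dpf.

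The elongase elovl4b, which in zebrafish makes very long-chain polyunsaturated fatty acids and is expressed in photoreceptors, had 12.38, 12.66 and 12.56 at 3 dpf, 12.54, 12.19 and 12.34 at 4 dpf, and 12.02, 11.48 and 11.35 at 5 dpf. The 5 dpf arrays lay below all others. Its difference at 5 dpf against 3 dpf was -0.92 (SE 0.194, adjusted p = 0.043), short of 2-fold, and it was called without replicate 1 of 5 dpf (-1.12, adjusted p = 0.016). The photoreceptor genes as a list had a median difference of 0.05 between these ages, with 1 of 10 called higher and 0 lower. Their differences were 5 positive and 5 negative, from -0.86 (opn1mw1) to 2.05 (guca1b). The part of photoreceptor RNA in the elovl4b difference was not tested.

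Acetyl-CoA carboxylase (acaca), the committing enzyme of fatty acid synthesis, had 8.84, 8.06 and 8.71 at 3 dpf, 9.45, 9.20 and 9.20 at 4 dpf, and 9.52, 9.42 and 9.09 at 5 dpf. All later arrays were above those of 3 dpf, yet the difference of 0.81 (SE 0.241, adjusted p = 0.090) at 5 dpf against 3 dpf did not pass. The gene aclya, for ATP citrate lyase, which supplies acetyl-CoA in the cytosol, was similar at 5 and 3 dpf. Its signal was 7.20, 7.57 and 7.62 at 3 dpf, 7.63, 7.85 and 7.65 at 4 dpf, and 7.34, 7.56 and 7.51 at 5 dpf, with a difference of 0.0014 (SE 0.136, adjusted p = 0.99) at 5 dpf against 3 dpf. The arrays of 5 and 3 dpf overlapped, while all 4 dpf arrays lay above both, by differences that did not pass the test. The other measured members of this role, fads2, elovl1b and elovl8b, differed by -0.21 to 0.10 at 5 dpf against 3 dpf, with none passing.

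In cholesterol synthesis limma called 0 of 12 probe sets in any comparison, with 5 at an unadjusted p under 0.05 at 5 dpf against 3 dpf, 1 at 4 dpf against 3 dpf and 2 at 5 dpf against 4 dpf. By adjusted p alone 2 were lower at 5 dpf than at 3 dpf (16.7%, against 5.63% of all probe sets) and 0 were higher (against 5.7%). The share at an unadjusted p under 0.05 was 41.7% at 5 dpf against 3 dpf, near the 35.2% given above. It was 8.33% at 4 dpf against 3 dpf, beside 29.7% of all probe sets, and 16.7% at 5 dpf against 4 dpf, beside 23.3%. The median difference was -0.47 over the 12, against 0.10 over all probe sets. Farnesyl diphosphate synthase (fdps), at the branch toward sterols and other isoprenoids, was measured by 2 probe sets. The probe set of lower mean signal had 7.19, 7.51 and 7.41 at 3 dpf, 6.85, 7.20 and 6.60 at 4 dpf, and 6.56, 6.50 and 6.62 at 5 dpf. Its 5 dpf arrays were below all 3 dpf arrays, with a difference of -0.81 (SE 0.099, adjusted p = 0.012). The other had 8.75, 8.92 and 8.66 at 3 dpf, 8.27, 8.69 and 8.50 at 4 dpf, and 8.38, 8.22 and 7.61 at 5 dpf. Both lay lower at 5 dpf than at 3 dpf without overlap, while their arrays of 5 and 4 dpf overlapped. The second differed by -0.70 (SE 0.217, adjusted p = 0.095) at 5 dpf against 3 dpf.

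The gene of HMG-CoA synthase, hmgcs1, which feeds the mevalonate pathway, had 9.24, 9.82 and 9.16 at 3 dpf, 9.43, 9.92 and 9.50 at 4 dpf, and 8.76, 8.72 and 8.80 at 5 dpf. The 5 dpf arrays were below all others. The difference was -0.86 (SE 0.195, adjusted p = 0.041) at 5 dpf against 4 dpf and -0.65 (SE 0.187, adjusted p = 0.085) at 5 dpf against 3 dpf. The last enzyme of the pathway, dhcr7, had 7.75, 7.80 and 7.85 at 3 dpf, 7.58, 8.02 and 7.65 at 4 dpf, and 7.24, 7.37 and 7.54 at 5 dpf. Its 5 dpf arrays were below the others, by -0.42 (SE 0.091, adjusted p = 0.046) against 3 dpf.

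Of the 9 measured probe sets of the pathway, 7 had a negative and 2 a positive difference at 5 dpf against 3 dpf (median -0.51). Over all 9014 measured probe sets 4654 were negative and 4360 positive (median -0.02). Both cyp51 and fdps entered by more than 1 probe set, so the counts of the pathway take some genes more than once. Whether the genes of the pathway differed from each other in direction was not tested. Lanosterol demethylase, cyp51, had on its probe set with the largest difference 5.33, 6.18 and 4.51 at 3 dpf, 5.21, 6.50 and 5.21 at 4 dpf, and 4.49, 4.05 and 5.29 at 5 dpf. The ages overlapped, with a difference of -0.73 (SE 0.521, adjusted p = 0.32). The other measured cyp51 probe set gave -0.51, also with overlapping ages. At 5 dpf the means of these cyp51 probe sets were under 5, at 4.61 and 4.60. The remaining cyp51 probe sets stayed between 1.29 and 1.92 on every array, near the bottom of the scale, and gave 0.08 and 0.05. The difference was positive for fdft1, which makes squalene (0.72, adjusted p = 0.15), and for msmo1, a sterol oxidase (0.59, adjusted p = 0.12). These values did not pass the test, and both genes were named after their values were seen.

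The sensor insig1, which holds the sterol-regulated transcription factor complex in the endoplasmic reticulum, was measured by 3 probe sets whose differences at 5 dpf against 3 dpf were -0.58, -0.26 and -0.07, with overlapping ages and adjusted p-values of 0.22 to 0.87. The insig1 probe set of highest mean signal had 7.93, 8.07 and 7.51 at 3 dpf, 7.53, 7.83 and 7.39 at 4 dpf, and 7.64, 7.82 and 7.28 at 5 dpf. Replicate 3 was lowest at each age. The low-density lipoprotein receptor relative ldlrad3 had 5.05, 5.41 and 4.74 at 3 dpf, 5.71, 5.56 and 5.52 at 4 dpf, and 5.76, 5.08 and 5.63 at 5 dpf, a difference of 0.42 (adjusted p = 0.26) between 5 and 3 dpf. Its 4 dpf arrays were above those of 3 dpf, and those of 5 dpf overlapped both.

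**Figure D3:**
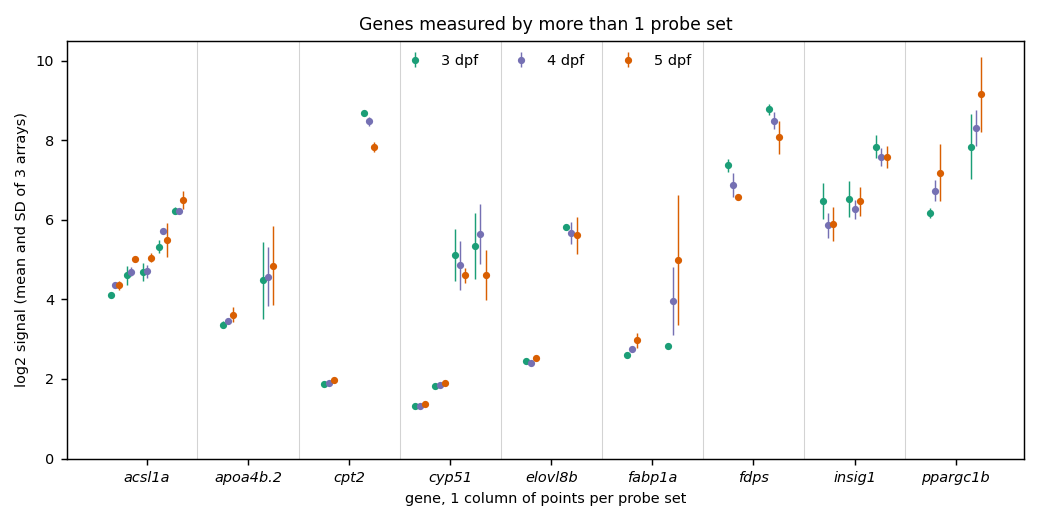
Mean log2 signal with SD over 3 arrays, at 3, 4 and 5 dpf, for the 9 genes measured by more than 1 probe set; each column of points is 1 probe set. Both fdps probe sets are lowest at 5 dpf and both ppargc1b probe sets are highest there, while the lower cpt2 probe set lies near 2 at every age.

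Several lipid handling genes had higher means at 5 dpf without passing the test. Lipoprotein lipase (lpla), which frees fatty acids from circulating lipoproteins, had 7.96, 7.37 and 7.04 at 3 dpf, 8.40, 7.91 and 7.90 at 4 dpf, and 9.07, 8.29 and 8.80 at 5 dpf. The 5 dpf arrays were above all 3 dpf arrays, by 1.27 (SE 0.308, adjusted p = 0.060). The adjusted p fell to 0.021 when all 9 arrays shared an estimate of the spread, and other alternatives also made it a call, though no fit with 1 array left out did. The lipase lipca stayed between 2.00 and 2.13 on every array.

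The coactivator ppargc1b, which drives mitochondrial and fatty acid oxidation genes in mammals, was measured by 2 probe sets. The first had 8.38, 6.90 and 8.25 at 3 dpf, 8.35, 7.83 and 8.73 at 4 dpf, and 10.10, 9.15 and 8.22 at 5 dpf. It overlapped between the ages and differed by 1.31 (SE 0.623, adjusted p = 0.19) at 5 dpf against 3 dpf. The second ppargc1b probe set had 6.13, 6.07 and 6.30 at 3 dpf, 6.43, 6.87 and 6.91 at 4 dpf, and 6.43, 7.84 and 7.28 at 5 dpf. Here the 5 dpf arrays were above those of 3 dpf, by 1.01 (SE 0.363, adjusted p = 0.12), and replicate 1 was the lowest of 5 dpf in contrast to the first probe set, where it was the highest.

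Of the ABC transporters, abca12, which in mammals loads lipids for the skin barrier, had 6.81, 6.60 and 7.16 at 3 dpf, 6.15, 5.88 and 6.05 at 4 dpf, and 6.74, 6.35 and 5.25 at 5 dpf. Its 4 dpf arrays were below those of 3 dpf, and the difference between 5 and 3 dpf was -0.75 (SE 0.410, adjusted p = 0.23). The gene abca3b, related to a mammalian surfactant lipid transporter, had 7.85, 7.75 and 7.91 at 3 dpf, 7.88, 7.62 and 7.57 at 4 dpf, and 8.24, 8.05 and 8.03 at 5 dpf. Its 5 dpf arrays were above all others. It differed by 0.42 (SE 0.0985, adjusted p = 0.046) at 5 dpf against 4 dpf, the 1 member higher by adjusted p alone in that step, and by 0.27 (adjusted p = 0.10) at 5 dpf against 3 dpf.

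The carriers differed from the enzymes in how much they varied among arrays of the same age. Within an age, 7 members had a range of over 2 on the log2 scale, and they were all among the 17 probe sets of apolipoproteins and fatty acid binding proteins (41.2%), against 1.54% of all probe sets. The median SD among arrays of an age was 0.73 over 6 measured apolipoproteins and 1.14 over 3 measured fatty acid binding proteins. Differences between ages of these genes are therefore measured with large errors.

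Apolipoprotein E (apoea), a ligand for lipoprotein receptors that is made by glia and macrophages as well as yolk and liver cells, had 6.29, 4.75 and 4.75 at 3 dpf, 3.54, 3.69 and 3.59 at 4 dpf, and 3.74, 3.86 and 3.90 at 5 dpf. All 3 dpf arrays stood above the rest. It was 3.16-fold lower at 4 dpf than at 3 dpf (log2 difference -1.66, SE 0.384, adjusted p = 0.032) and differed by -1.43 (SE 0.446, adjusted p = 0.097) at 5 dpf against 3 dpf. The call was lost when any single 4 dpf array was left out (adjusted p 0.087 to 0.098), when signals under 4 were set to 4 (adjusted p = 0.067) or when the 5 dpf arrays were left out of the fit (adjusted p = 0.062). Another apolipoprotein E gene, apoeb, is not a member and was named after its values were seen. It was far brighter and went the other way, with means of 10.64 at 3 dpf, 11.02 at 4 dpf and 11.43 at 5 dpf. Its difference at 5 dpf against 3 dpf was 0.79 (SE 0.154, limma adjusted p = 0.035), under the fold limit.

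The main protein of high-density lipoprotein, apoa1a, had 6.85, 5.80 and 5.53 at 3 dpf, 4.11, 5.09 and 4.67 at 4 dpf, and 4.04, 4.67 and 3.15 at 5 dpf. Its 3 dpf arrays were above all others, by a difference of -2.11 for 5 dpf against 3 dpf (SE 0.516, adjusted p = 0.060), which became a call in the fit to all 9 arrays (adjusted p = 0.022). The scaffold protein of very low-density lipoprotein, apobb.1, had 9.35, 7.40 and 6.79 at 3 dpf, 6.50, 6.91 and 5.87 at 4 dpf, and 7.59, 4.90 and 7.77 at 5 dpf. The ages overlapped, and the difference of -1.09 carried an SE of 1.04 (adjusted p = 0.45).

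The small exchangeable apolipoprotein apoc1 had 7.51, 7.36 and 6.60 at 3 dpf, 7.69, 8.23 and 7.26 at 4 dpf, and 7.93, 7.32 and 8.67 at 5 dpf, a difference of 0.82 (adjusted p = 0.21). Apolipoprotein C-II (apoc2), the cofactor of lipoprotein lipase, had 6.82, 7.50 and 5.24 at 3 dpf, 6.32, 6.39 and 5.09 at 4 dpf, and 5.72, 5.71 and 6.05 at 5 dpf, a difference of -0.69 (adjusted p = 0.39). Both genes overlapped between 5 and 3 dpf. The gut-type apolipoprotein apoa4b.1, named after its values were seen, had 6.61, 6.68 and 3.75 at 3 dpf, 6.48, 7.01 and 4.83 at 4 dpf, and 6.70, 3.23 and 7.07 at 5 dpf. A single array was low at each age, and the difference between 5 and 3 dpf was -0.01 with an SE of 1.34.

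Fatty acid binding proteins showed the widest differences of all members. The liver-type fabp10a had 3.67, 3.73 and 3.11 at 3 dpf, 6.83, 7.26 and 5.33 at 4 dpf, and 6.67, 3.98 and 7.60 at 5 dpf. Later arrays were all above those of 3 dpf, but replicate 2 of 5 dpf only slightly. The difference between 5 and 3 dpf was 2.58 (SE 0.951, adjusted p = 0.13), and without that array it was 3.64 (adjusted p = 0.025), a call. The intestinal fabp2 had 4.94, 7.37 and 4.46 at 3 dpf, 3.17, 5.13 and 2.95 at 4 dpf, and 3.26, 2.97 and 3.15 at 5 dpf. All 5 dpf arrays of fabp2 were below those of 3 dpf, and replicate 2 was the highest at 3 and 4 dpf. Its difference was -2.46 (SE 0.779, adjusted p = 0.099), and without replicate 2 of 3 dpf it was -1.57 (adjusted p = 0.034), also a call.

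The heart-type fabp3 had 10.48, 10.89 and 10.98 at 3 dpf, 10.33, 10.98 and 11.21 at 4 dpf, and 9.80, 11.05 and 10.93 at 5 dpf. Replicate 1 was lowest at each age, the ages overlapped, and the difference was -0.19 (SE 0.369, adjusted p = 0.71). A pair of liver-type genes, named after their values were seen, went in opposite directions without passing. The first, fabp1b.1, had 4.07, 6.07 and 2.85 at 3 dpf, 2.75, 3.34 and 2.80 at 4 dpf, and 2.96, 2.88 and 2.92 at 5 dpf. The other, fabp1a, had on its probe set of higher mean signal 2.80, 2.81 and 2.85 at 3 dpf, 4.00, 3.08 and 4.78 at 4 dpf, and 5.35, 6.40 and 3.21 at 5 dpf. Their differences at 5 dpf against 3 dpf were -1.41 (adjusted p = 0.24) for fabp1b.1 and 2.17 (adjusted p = 0.13) for fabp1a.

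Liver, gut and pancreas genes that are not members varied among the same arrays. The mean of 12 liver genes was 5.24, 4.49 and 3.76 at 3 dpf, 5.94, 5.86 and 4.77 at 4 dpf, and 6.20, 5.19 and 6.43 at 5 dpf. Its lowest array was replicate 3 at 3 and 4 dpf and replicate 2 at 5 dpf. That array was also the lowest of its age for fabp10a, fabp2, apoa4b.1, apobb.1, apoc1, apoc2 and a probe set of apoa4b.2. For apoc2 this was narrow at 5 dpf (5.71 beside 5.72). It did not hold at every age for apoa1a, apoea, fabp1a, fabp1b.1 or fabp3. Of the 12 liver genes, limma called 3 higher and 0 lower at 5 dpf against 3 dpf, beside 2.97% and 2.39% of all probe sets. The differences of all 12 were positive, with a median of 1.17. The mean of 8 intestine genes was 2.99, 3.62 and 2.91 at 3 dpf, 2.87, 2.95 and 2.84 at 4 dpf, and 2.92, 2.89 and 2.99 at 5 dpf, with 0 of 8 reaching a mean of 5 at any age. Replicate 2 of 3 dpf, the highest array for fabp2 and fabp1b.1, was also the highest for this list, and 2 of its genes had a signal of at least 5 there. Other carriers did not share this array: apoa1a was highest on replicate 1 of 3 dpf (6.85) and fabp1a on replicate 2 of 5 dpf (6.40). The mean of 15 pancreas genes was 3.35 to 4.91 at 3 dpf, 4.10 to 4.83 at 4 dpf and 5.92 to 7.42 at 5 dpf, and replicate 2 was again the highest of 3 dpf. The part of liver, gut and pancreas RNA in the carriers' values was not tested.

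**Figure D4:**
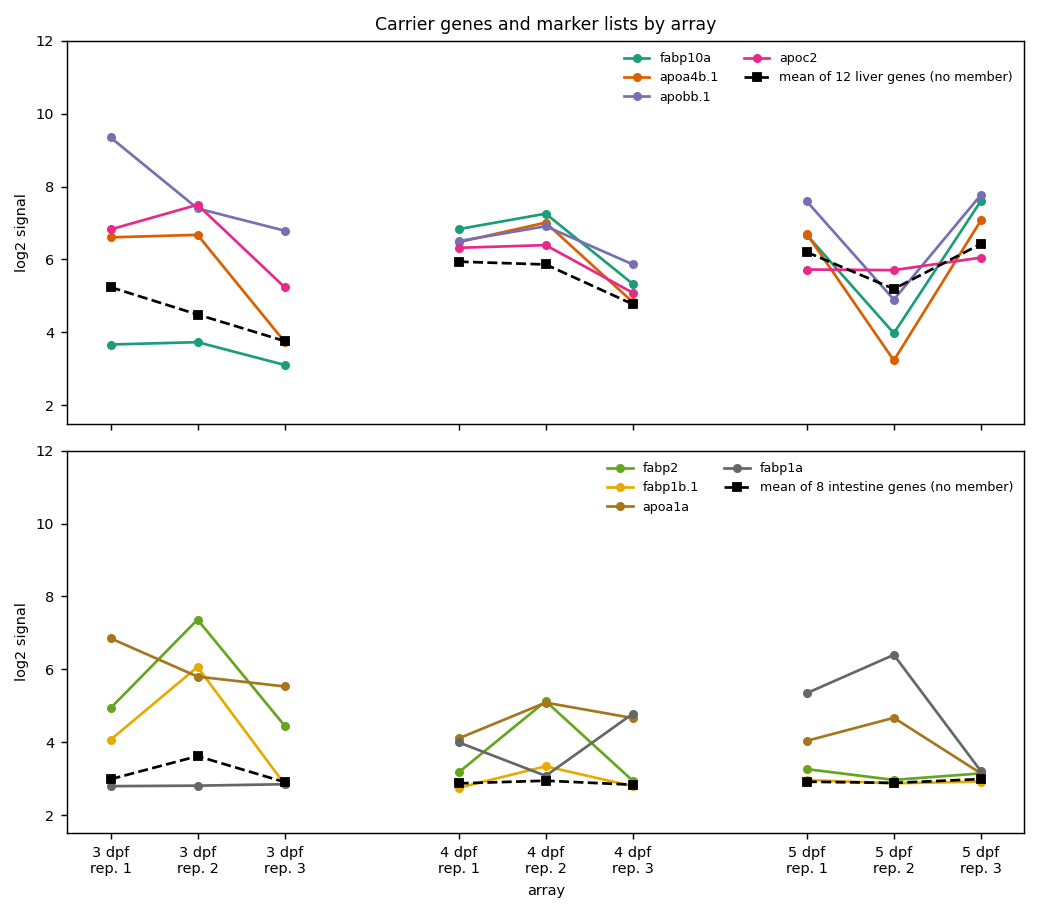
Log2 signal of 8 carrier genes on each of the 9 arrays, with the mean of 12 liver genes (upper panel) and 8 intestine genes (lower panel) as dashed lines. In the upper panel fabp10a, apoa4b.1, apobb.1 and apoc2 are lowest within each age on the array where the liver mean is lowest, apoc2 only narrowly at 5 dpf. In the lower panel fabp2 and fabp1b.1 are highest on replicate 2 of 3 dpf, whereas apoa1a is highest on replicate 1 of 3 dpf and fabp1a on replicate 2 of 5 dpf.

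At low signal, insig2, a relative of insig1, had 2.02, 2.03 and 2.04 at 3 dpf, 2.68, 2.66 and 2.71 at 4 dpf, and 2.07, 2.06 and 2.09 at 5 dpf. It was named after its values were seen. The 4 dpf arrays were above all others, with differences of 0.66 (SE 0.0381, adjusted p = 2.2e-04) at 4 dpf against 3 dpf and -0.61 (adjusted p = 0.0012) at 5 dpf against 4 dpf, both under the fold limit. Pairs of 4 dpf arrays held 48 to 114 probe sets with exactly equal values, and every other pair of arrays held 0. It is not known whether the 9 arrays were normalized in a single run. Any such processing effect on the 4 dpf arrays and the effect of age cannot be told apart. This holds for all comparisons with 4 dpf, including the calls of elovl7a and apoea there and the test of the steps.

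The groups' arrays often failed to overlap without a call. At 5 dpf against 3 dpf all 5 dpf arrays were above all 3 dpf arrays for 28 members and below them for 19. These counts stand beside 41.8% and 13.6% of all probe sets. Among the 52 measured members the counts were 10 above and 18 below, beside 1913 and 1953 of the 9014 measured probe sets, so 18 of the 28 members above were not measured ones. At 4 dpf against 3 dpf the counts were 14 above and 9 below, beside 29.2% and 17.6%, and at 5 dpf against 4 dpf they were 12 above and 12 below, beside 23.5% and 10.1%.

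Further genes of the same pathways were examined as lists, each gene by its probe set of highest mean signal. Of 34 other cholesterol and sterol genes 16 were on the array with a single symbol, and at 5 dpf against 3 dpf limma called 0 of them, with 3 at an unadjusted p under 0.05. Of 38 other lipid carrier and lipoprotein genes 19 were present and 0 were called, with 6 at an unadjusted p under 0.05. Of 61 other fatty acid and triacylglycerol genes 36 were present, with 1 called higher, 1 called lower and a median of 0.01. By adjusted p alone 2 were higher and 4 lower, beside 5.7% and 5.63% of all probe sets. An unadjusted p under 0.05 was found for 18 of the 36, beside 35.2% of all probe sets. In the steps that involve 4 dpf 0 genes of these lists were called, and between 3 and 15 genes of a list had an unadjusted p under 0.05. The 15 were of these 36 genes at 5 dpf against 4 dpf, beside 23.3% of all probe sets.

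The gene called lower was hsd17b12b, the ketoacyl reductase that works beside the elongases in each round of chain lengthening. Its signal was 8.93, 9.21 and 8.93 at 3 dpf, 8.61, 8.85 and 8.66 at 4 dpf, and 8.06, 8.06 and 7.40 at 5 dpf, with no overlap between ages. The difference at 5 dpf against 3 dpf was -1.18 (SE 0.211, adjusted p = 0.028). The gene called higher was slc27a6, a fatty acid transport protein, with 3.54, 3.56 and 3.31 at 3 dpf, 4.12, 4.22 and 4.07 at 4 dpf, and 4.87, 5.23 and 4.44 at 5 dpf. Its ages did not overlap either, and it differed by 1.38 (SE 0.215, adjusted p = 0.020) at low signal.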

How the data were processed

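RNA of dissected wild type eyes was amplified, labelled and hybridised to Affymetrix Zebrafish Genome Arrays, 3 at each of 3, 4 and 5 dpf. The deposited values are log2 signals, which the authors summarized for each probe set with GCRMA, version not given in the sources used here. This is a model-based background correction, and its effect on the fold changes of dim probe sets was not tested. Dim probe sets could vary very little among arrays of an age, as for insig2 (SD 0.0090 to 0.024). No further normalization was applied. The files hold no detection calls, and 3 arrays an age limit the precision.

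Differences were tested with limma 3.58.1 in R 4.3.3 (lmFit, eBayes), and p-values were adjusted by Benjamini-Hochberg over the 15502 probe sets that are not among the 115 controls. The comparison of 5 with 3 dpf used those 6 arrays, and comparisons with 4 dpf used all 9. Symbols came from the platform annotation, and all 75 members were found in the RefSeq gene table by Entrez identifier with 0 symbols changed. The members and lists were chosen with earlier results of these data known. Genes were named if called, if among the 3 uncalled probe sets of highest mean signal in their role, or if among the 2 uncalled measured ones of largest difference between 5 and 3 dpf. Others were named after their values were seen, whether or not this is said where they appear.

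Same-numbered arrays of 3 and 4 dpf deviated together from their age means (correlations 0.60, 0.50 and 0.44), which counts as pairing from the data and not from the labels. At 5 dpf only replicate 1 did so by number (0.54 with 3 dpf and 0.72 with 4 dpf). Replicate 3 of 5 dpf deviated with replicate 2 of 3 dpf (0.46) and of 4 dpf (0.53), and replicate 2 of 5 dpf with replicate 3 of 4 dpf (0.50). Blocking on the replicate number kept both calls at 4 dpf against 3 dpf. Alternatives covered normalization, a floor and filter on low signals, the replicate block, the fold limit, the moderation, 1 probe set a gene, the arrays in the fit and leaving out each array. The scripts were tested on simulated data.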

Additional observations from a re-analysis of the deposited data

Results flagged for a closer look

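For 2 members the step to 5 dpf differed from the step to 4 dpf by limma's test of that difference. For elovl7a the difference between the steps was 1.46 (adjusted p = 0.013), with a signal lower at 4 dpf than at 3 dpf and a difference of -0.01 at 5 dpf against 4 dpf. With 1 array left out its adjusted p ranged over 0.014 to 0.065, and the test was lost in 2 of 9 such fits. For insig2 it was -1.27 (adjusted p = 3.3e-04), with the 4 dpf arrays above those of both other ages at signals of 2.02 to 2.71. Of the probe sets with a mean under 3, 10% passed this test, against 6% of all probe sets.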

How the results depend on the processing

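Member calls at 5 dpf against 3 dpf numbered 3, and became 5 with signals under 4 set to 4, with a mean of at least 5 required, with 1 probe set a gene and with the replicate block. They became 8 with no fold limit, 1 with an unmoderated test, 6 with trend and robust moderation and 6 in a fit to all 9 arrays. With 1 array left out they ranged over 1 to 5, the 1 being elovl7a without replicate 3 of 3 dpf. Same-numbered arrays of 3 and 5 dpf deviated together only for replicate 1 (correlations of deviations 0.54, 0.0082 and 0.041). Replicate 2 of 3 dpf deviated with replicate 3 of 5 dpf (0.46), so the replicate block does not follow the deviations at 5 dpf. The block moved the count over all probe sets to 921, against 831 without it. At 4 dpf against 3 dpf the 2 calls became 1 with the floor of 4, with the mean filter and with the unmoderated test, and 1 to 3 with 1 array left out. At 5 dpf against 4 dpf the 0 calls became 8 with no fold limit, and 0 to 1 with 1 array left out. The 2 members whose steps differed became 1 with the floor and 0 with the mean filter, and 1 to 3 with 1 array left out. The floor and the mean filter test fewer probe sets, insig2 not among them; otherwise the cause was not tested. Quantile normalization turned the differences of aclya (-0.0024) and lipca (-0.024) at 5 dpf against 3 dpf. With 1 array left out, those of aclya (-0.13 to 0.080), insig1 (-0.32 to 0.14), acadm (-0.17 to 0.10) and fabp3 (-0.42 to 0.21) took either sign; none of these was called. Under the unmoderated test acsl6 (adjusted p = 0.053), hadhab (0.061) and, at 4 dpf against 3 dpf, apoea (0.058) lost their calls. Of 449 single values under the other alternatives, 412 kept direction and side of the limits.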
